A study of Mus musculus with 2 samples.

Results

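ILC2s entering DNA replication were described here in fetal mouse lung: group 2 innate lymphoid cells that held transcripts for loading and opening replication origins while holding almost none for mitosis. The cells came from 1 single-cell RNA sequencing experiment on wild type C57BL/6J fetuses, in which 9-week-old pregnant mothers drank either the synthetic glucocorticoid dexamethasone (DEX) at 1.3 µg/ml or phosphate-buffered saline (PBS) in their water, beginning on gestation day 12. On gestation day 18 the fetal lungs were pooled by litter, and live CD45+ cells without lineage markers and with ST2, which Il1rl1 encodes and IL-33 binds, were sorted. Each litter carried its own hashtag, a barcoded antibody counted in the same cells: litters DEX-1 (8 fetuses), DEX-2 (9), PBS-1 (5) and PBS-2 (8). All litters were loaded together, and a litter, by its own hashtag, was taken as a replicate, with 2 in each group. The sources differ on whether each group had 1 mother or 2. Wherever 4 litter values stand in a row, they keep this order.

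Members were chosen by their unique molecular identifiers (UMIs, each 1 captured RNA molecule). A barcode had to hold at least 200 genes, at most 5% mitochondrial UMIs and 1 litter's hashtag, and an ILC2 was a cell with a Gata3 UMI, at least 2 UMIs of Il2ra, Il2rb and Tnfrsf18 together and at most 2 of Tyrobp. An entry ILC2 had at least 3 UMIs of Ung, Mcm2, Mcm5, Cdc6 and E2f1 together (the S sum) and at most 1 UMI of Mki67, Top2a, Cdk1, Birc5, Ube2c, Nusap1, Tpx2 and Cenpf together (the M sum). These 18 genes therefore describe the members and support nothing about them. Of 1744 ILC2s among 8598 singlets, 159 (9.12%) were entry cells, and litter DEX-1 gave 42 of them, DEX-2 gave 32, PBS-1 gave 23 and PBS-2 gave 62. They were set against 1006 comparison ILC2s, in which both sums were at most 1, and against 507 dividing ILC2s, in which the M sum was at least 2. Another 72 ILC2s had an S sum of 2 and a low M sum and belonged to none of these classes.

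A cell that leaves rest commits to the cycle when cyclin D with Cdk4 or Cdk6 frees the E2F factors from the retinoblastoma proteins. E2F then turns on the genes that load the Mcm helicase at origins (licensing), fire the origins, copy the DNA at the fork and supply nucleotides, while the genes of mitosis are held back until later by complexes that bind other promoter letters. Lymphocytes, ILC2s among them, divide in bursts in growing tissue and after cytokines such as IL-7, IL-2 and IL-33.

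Promoters of a few of the genes concerned are shown first, to set the letters of this circuit beside the genes measured. The letters searched were the E2F-type sequences TTTCCCGC, TTTGGCGC, TTTCGCGC and TTTGCCGC. TTTGAA and TTCGAA, which mark promoters of many mitosis genes, were searched too, all on both strands. For the single genes named here the search covered only the 250 bases before the RefSeq start (GRCm38.p6). For the shares further below it also took in 50 bases after the start. Capitals mark the matches, and every stretch ends before the start of the gene. Mcm6 (chr1:128359706-128359855, minus strand) encodes a helicase subunit that the rule did not use, and its promoter held 3 E2F-type matches, of which 2 on opposite strands overlap. Hells (chr19:38930840-38930989, plus strand) encodes a chromatin remodeller and held 1. Uhrf1 (chr17:56304063-56304312, plus strand), a reader of newly copied methylated DNA, held 1 in 1 of its 2 listed promoters. Mcm5 (chr8:75109259-75109508, plus strand) is a gene of the S sum, with 2 overlapping matches on opposite strands. Of the other S sum genes Cdc6 held 1 E2F-type match and Ung and Mcm2 none, and Mcm2 held TTTGAA. The stretch searched for E2f1 held none either. It lies before a listed start inside the gene and reads as coding sequence, so it does not describe the E2f1 promoter. Cdc20 (chr4:118437344-118437493, minus strand), an activator of the anaphase-promoting complex, and Ube2c (chr2:164769779-164769928, plus strand), which works with that complex and is a gene of the M sum, are mitosis genes that hold TTTGAA, on the opposite strand in Ube2c. Every promoter printed below held a match. Mcm3, Pcna, Dut, Cdt1 and Rrm2 were looked up in the same way and held none, nor did the mitosis genes Ccnb1, Plk1, Cenpa and Cks2.
Mcm6: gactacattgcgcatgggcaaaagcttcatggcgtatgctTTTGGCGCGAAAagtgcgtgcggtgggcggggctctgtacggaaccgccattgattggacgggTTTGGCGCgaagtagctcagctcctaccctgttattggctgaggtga
Hells: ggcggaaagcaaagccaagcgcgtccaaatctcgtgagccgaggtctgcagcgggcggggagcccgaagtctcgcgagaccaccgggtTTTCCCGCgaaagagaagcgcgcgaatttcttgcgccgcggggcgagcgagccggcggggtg
Uhrf1: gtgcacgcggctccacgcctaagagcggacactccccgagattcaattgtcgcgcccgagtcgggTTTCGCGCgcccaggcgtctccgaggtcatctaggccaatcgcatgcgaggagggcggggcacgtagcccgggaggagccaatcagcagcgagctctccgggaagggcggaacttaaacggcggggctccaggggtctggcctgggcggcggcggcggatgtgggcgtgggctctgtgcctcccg
Mcm5: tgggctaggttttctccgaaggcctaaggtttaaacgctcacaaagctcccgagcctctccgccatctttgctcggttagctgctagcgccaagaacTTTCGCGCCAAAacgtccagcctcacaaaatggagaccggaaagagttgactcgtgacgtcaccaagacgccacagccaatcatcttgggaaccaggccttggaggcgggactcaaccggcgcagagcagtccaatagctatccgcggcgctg
Cdc20: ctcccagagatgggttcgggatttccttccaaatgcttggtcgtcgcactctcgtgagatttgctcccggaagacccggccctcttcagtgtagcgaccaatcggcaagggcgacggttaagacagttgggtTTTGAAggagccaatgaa
Ube2c: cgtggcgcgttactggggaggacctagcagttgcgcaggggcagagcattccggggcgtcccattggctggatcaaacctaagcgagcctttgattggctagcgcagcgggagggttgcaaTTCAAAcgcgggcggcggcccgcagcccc
The E2F-type letters were found for 704 of 27025 genes in the promoter table and for 5.29% of the 7166 tested genes that had an entry. Of the licensing genes, 7 of 11 with a promoter held them (63.6%), as did 9 of 27 fork genes (33.3%), 3 of 11 firing genes, 1 of 20 nucleotide genes and 0 of 33 mitosis genes. TTTGAA or TTCGAA was found for 28 of the 33 mitosis genes (84.8%), against 21.7% of all genes in the table. A match is a description of letters, and no factor's binding was measured.

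By the rule's own genes, the S sum of the members had a median of 5 and a highest value of 17. Mcm5 was found in 146 members, Mcm2 in 138, Ung, which removes uracil from DNA, in 81, E2f1 in 73 and Cdc6, a helicase loader, in 25. A single S gene accounted for the whole sum in 6 members, 2 genes in 55, 3 in 53, 4 in 37 and all 5 in 8. The M sum was 0 in 106 members and 1 in 53. Just inside the threshold lay 43 members with an S sum of 3, and just outside it the 72 ILC2s with a sum of 2. On the other side lay 20 ILC2s with a high S sum and an M sum of 2, and 253 with an M sum of 3 or more.

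The ILC2 label held in the markers that the gate did not use. Rora, which ILC2 development requires, and Il7r were each found in 97.5% of members, the costimulator Icos in 96.2%, Id2 in 85.5%, Il1rl1 in 77.4% and Thy1 in 74.2%. The shares in singlets outside the gate, at a median of 8223 UMIs against 10359, were 31.8% for Rora, 32.1% for Il7r, 8.83% for Icos, 53.4% for Id2, 49.96% for Il1rl1 and 5.66% for Thy1. The effector genes Areg and Il13 were found in 64.2% and 40.3% of members. Klrg1 was found in 5.03%. Il1rl1 was thus common outside the gate, where the same sort had selected its protein.

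UMIs of the lung stroma list were found in most members, 135 of 159 (84.9%), and in 86.2% of comparison cells. The surfactant gene Sftpc alone was found in 122 members. Only 4 members went over a set limit, 1 in PBS-1, 1 in PBS-2 and 2 in DEX-2. There another cell type's list took over 0.5% of UMIs, or 9 lung stroma genes other than surfactant summed to at least 5 UMIs. The PBS-1 cell had 52447 UMIs in all, 127 of them from the endothelial genes Pecam1, Cdh5 and Kdr, and the PBS-2 cell had 32916 with 39. The lung stroma list took 5.47% of the PBS-2 cell's UMIs, with 42 UMIs from genes other than surfactant. The DEX-2 cells had 43 and 12 collagen UMIs. Such cells numbered 57 among the comparison and 41 among the dividing ILC2s, and results that rest on them are given with and without them. Over all members the mast and basophil list lay at 221 to 357 CPM (UMIs per 1000000 UMIs of a class in a litter) against 430 to 633 in comparison cells and 12886 to 21125 outside the gate, and 4 of its 12 genes were at 0 UMIs in members, Fcer1a and Ms4a2 among them. Fcer1a was at 0 in comparison cells too. Of the others Kit had 407 UMIs in 130 members, Hdc had 61 in 30 and Cpa3 had 60 in 21, and of these 3 Hdc, which makes histamine, was called lower than in comparison cells (-1.75 ± 0.22 on the log2 scale, edgeR adjusted p = 0.000445). The lung stroma list of 11 genes lay at 282 to 2874 CPM in members and 2765 to 8002 in comparison cells, with no gene at 0. The 2874 CPM was the value of PBS-2, and most of it came from the PBS-2 cell described above. Ranges for members and comparison cells were 10.4 to 220 and 43.4 to 234 CPM for 10 myeloid genes (8 at 0 in members), 58.7 to 88.1 and 64.2 to 140 for 10 B cell genes (5 at 0), 0 to 10.2 and 10.2 to 652 for 7 erythroid genes (4 at 0) and 383 to 632 and 549 to 601 for 12 T and NK cell genes (5 at 0, Cd4 and Ncr1 among them). Outside the gate the T and NK list lay at 27.1 to 66.3 CPM. Its UMIs in members were mostly of Cd3g (710 UMIs in 138 members), Trbc2 (116 in 72) and Cd3e (93 in 31), which encode parts of the T cell receptor complex, and none of the 3 was called between entry and comparison cells.

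The share of entry cells among ILC2s did not separate the treatments. The DEX litters had 9.17% (95% Wilson interval 6.86 to 12.2%) and 8.67% (6.21 to 12.0%). The PBS litters had 5.69% (3.82 to 8.40%) and 12.1% (9.54 to 15.2%). The PBS litters were the lowest and the highest, with the DEX litters between them. The mean was 8.92% ± 0.352 (SD, n = 2 litters) under DEX and 8.89% ± 4.52 under PBS, a difference of 0.0318 percentage points (exact permutation p = 1, two-sided). With 2 litters a group the smallest p such a test can give is 0.333. The intervals cover counting error alone. The sign turned with single litters. The difference was -3.16 points without PBS-1, 3.23 without PBS-2 and -0.217 without DEX-1. When every cell was first thinned to 5000 UMIs and the rule then applied, which left 73 entry cells, the shares were 5.48%, 4.22%, 6.35% and 9.39% in the same order, with both PBS litters above both DEX litters (exact permutation p = 0.333).

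**Figure D1:**
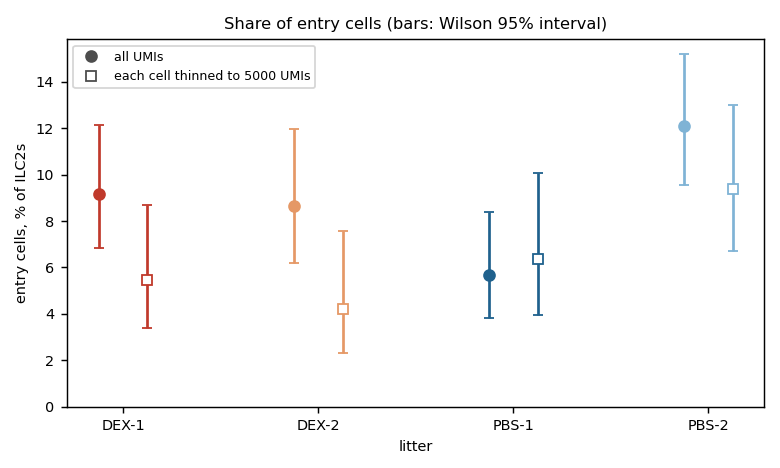
Share of entry cells among ILC2s in percent, by litter, with 95% Wilson intervals, before and after each cell was thinned to 5000 UMIs. The DEX litters lie between the PBS litters before thinning and below both after it.

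The rule asks for a minimum of UMIs, so the depth of the members is given as a description. The median UMIs per member were 9820, 11612, 10488 and 10079, against 5809, 5888.5, 6039 and 6327 in comparison cells and 14369, 13740, 14993.5 and 13756.5 in dividing cells. The ranges of these litter medians did not overlap between the 3 classes, although single cells of the classes did overlap in depth. The medians of members were 1.74 times those of comparison cells and 0.738 times those of dividing cells. Hashtag UMIs come from antibody on the cell and not from RNA, and the rule used them only to name the litter and to keep singlets. Their medians in members were 546.5, 1821.5, 1041 and 1272, against 545, 1648.5, 1156 and 1057 in comparison cells, a ratio of 1.05 that was above 1 in 3 of 4 litters (exact permutation p = 0.625). Against dividing cells the ratio was 0.792 and below 1 in 4 of 4 litters (exact permutation p = 0.125, the smallest that 4 litters allow). Members and comparison cells thus had no fixed order in hashtag signal.

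The first comparison asked which other genes move with entry, in 4 litters that each gave both classes. The 18 rule genes were left out, but the remaining genes come from the same cells and depth as the rule, so the test says how far the litters agree and is no independent evidence that the cells cycle. Of 8977 genes tested, 1215 were called (13.5%), 763 higher in entry cells (8.5%) and 452 lower (5.04%), by edgeR's quasi-likelihood test with litter as a block at a Benjamini-Hochberg adjusted p under 0.05. Of the called genes, 216 rose and 140 fell by at least 2-fold, and 760 of the 763 that rose did so in all 4 litters. The median log2 fold change over all genes was -0.03. The count fell to 619 without DEX-1, 622 without DEX-2 and 783 without PBS-2, and rose to 1862 without the cells that carried other cells' markers.

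Licensing genes rose: 7 of 13, 0 lower, with a list median of 1.45 on the log2 scale. Mcm6 stood at 389, 268, 359 and 288 CPM against 49.7, 55.0, 47.3 and 58.8 in comparison cells, a log2 fold change of 2.64 ± 0.14 (SE, n = 4 litters, adjusted p = 2.94e-06). Every litter's entry value was above every comparison value. Mcm3, another subunit of the same helicase, stood at 198, 222, 221 and 235 CPM against 27.2, 35.3, 26.2 and 40.9 (2.78 ± 0.14, adjusted p = 1.94e-06). The 6-subunit helicase was raised in all 4 subunits that the rule had not used, since Mcm4 (2.47) and Mcm7 (2.74) were called as well. Cdt1, which loads the helicase, and Gmnn, which blocks Cdt1 once copying has begun, rose by 1.45 and 2.04. The origin recognition genes Orc1 to Orc5 were not called, while Orc6 was.

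Firing and fork genes rose in nearly every case. Of 12 firing genes tested 10 were called, with a list median of 2.25, and of 31 fork genes 30 were called, all but Pold4, with a median of 1.77. Gins2, part of the active helicase, stood at 78.7, 68.9, 55.3 and 63.2 CPM against 5.20, 2.72, 4.56 and 3.92 in comparison cells (a log2 difference of 4.004 ± 0.27, adjusted p = 1.17e-05). The groups were far apart in every litter. Hells, which no list held, stood at 112, 68.9, 135 and 104 CPM against 9.25, 6.79, 8.54 and 15.1 (3.39 ± 0.22, adjusted p = 1.17e-05). Pcna, the sliding clamp that holds polymerase on DNA, stood at 174, 158, 149 and 126 CPM against 34.7, 44.1, 29.0 and 40.3 (2.05 ± 0.16). Among called genes at 20 CPM or more, the largest rise in log2 terms was in Dscc1, a clamp loader subunit, at 4.88 ± 0.66, from 4 UMIs over all comparison cells to 34 over all members. Its members' values were uneven, at 35.8, 5.10, 31.1 and 11.8 CPM. Among other genes with the largest rises were Pclaf (4.05), Cdc45 (3.99), Cenps (3.70) and the histone chaperone genes Chaf1a (3.54) and Asf1b (3.52).

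**Figure D2:**
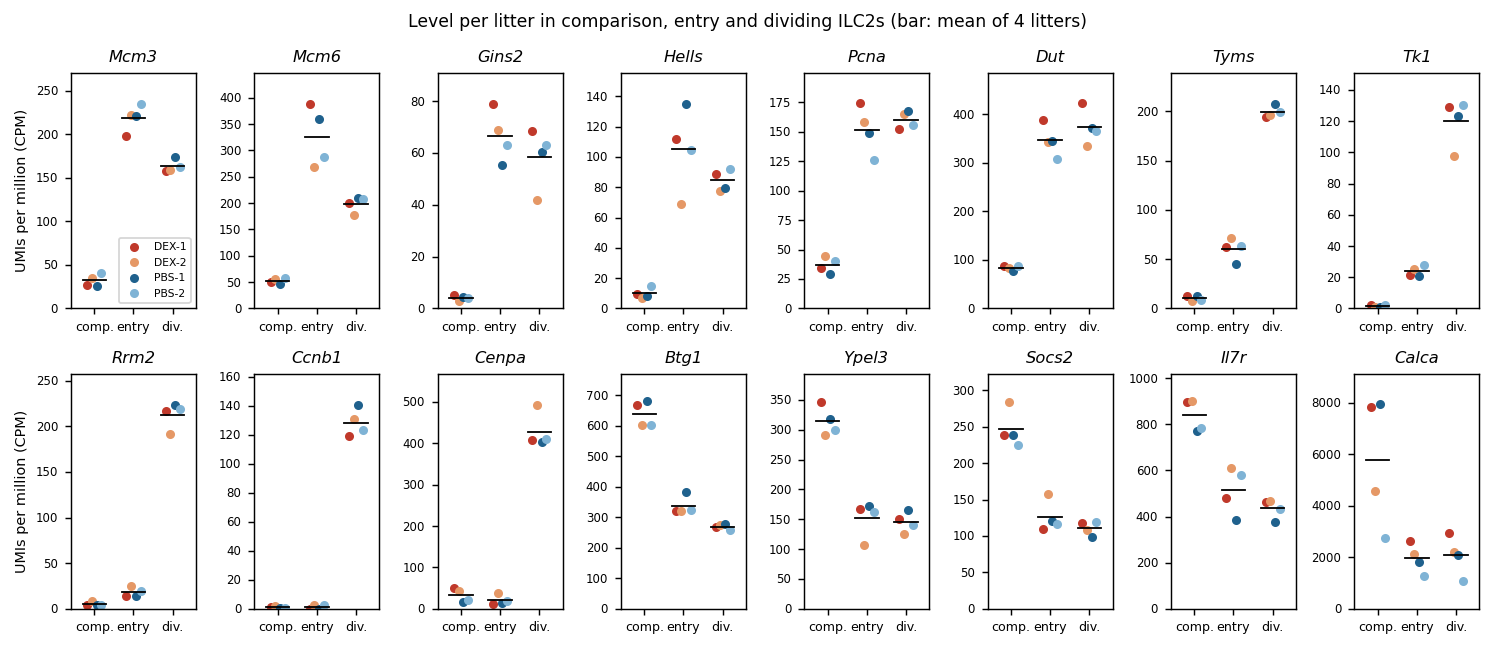
Level in CPM, on linear axes from 0, of named genes in comparison, entry and dividing ILC2s, each point a litter and each bar the mean of 4. Mcm3 and Mcm6 are higher in entry cells than in the other classes, Rrm2, Tk1 and Tyms are far below their dividing level, and Btg1 is below its comparison level in every litter.

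All 22 nucleotide supply genes were called higher, with a median of 1.37, and 9 of 13 DNA repair genes were, with a median of 1.47. Dut, which destroys dUTP, stood at 389, 342, 345 and 306.98 CPM in the 4 litters against 87.3, 83.5, 76.9 and 87.9 in comparison cells (2.06 ± 0.10, adjusted p = 1.94e-06). Shmt1 and Tk1 rose by 3.31 and 3.83, and Tyms, which makes thymidylate, by 2.58. Rrm2, the small subunit of ribonucleotide reductase, rose least of these named genes, from 5.48 ± 2.25 to 18.2 ± 5.43 CPM (1.77 ± 0.40, adjusted p = 0.0132). Of 23 growth and ribosome biogenesis genes 18 were called higher, with a median of 0.83, led by Ranbp1 (1.65) and the spermidine synthase gene Srm (1.59), while Myc differed by -0.11 ± 0.21 (adjusted p = 0.800).

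G1/S regulators moved unevenly: 5 of 17 were higher and 2 lower, with a median of 0.17. Cdk4 stood at 451, 426, 404 and 369 CPM against 189, 196, 191 and 199 (1.11 ± 0.09, adjusted p = 3.37e-05), with no overlap. The E2F partner Tfdp1 (1.55), the pocket protein gene Rbl1 (1.80), Cdc25a (1.45) and Cdk2 were higher too. Ccnd3 fell by 0.50 and the inhibitor Cdkn1b by 0.53 on the log2 scale. Ccnd2 differed by 0.06 ± 0.14. The cyclin E genes were too scarce to test, with 12 UMIs of Ccne1 and 6 of Ccne2 over all 159 members.

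Of 40 mitosis genes outside the rule only 8 had enough UMIs to test, and 3 were called higher: Tacc3 (2.47), Cdca8 (2.33) and Cks2 (0.80). Ccna2 had 2 UMIs over all members and Ccnb1 and Ccnb2 3 each. The 67 replication-dependent histone genes summed to 353 ± 57.1 CPM in members, 406 ± 69.8 in comparison cells and 2613 ± 335 in dividing cells (SD, n = 4 litters), and of the 11 tested edgeR called 1 lower. DNA content and DNA synthesis were not measured, so the class is named for its transcripts.

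**Figure D3:**
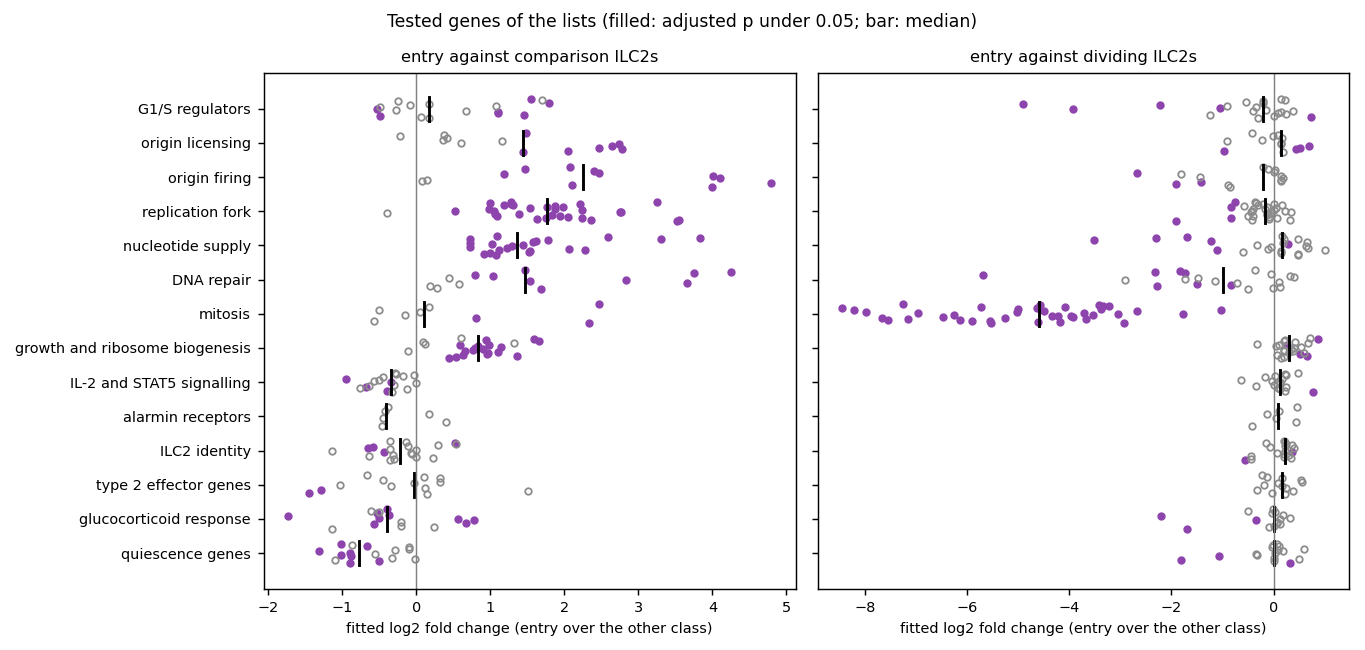
Log2 fold changes of the genes of each list in entry ILC2s, against comparison cells and against dividing cells, each point a gene, with filled points called. Nearly all firing, fork and nucleotide genes lie above 0 against comparison cells, and the mitosis genes all lie below 0 against dividing cells.

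Quiescence genes were lower in entry cells when all cells were used. Of 16 quiescence genes tested 8 were called lower and 0 higher, with a median of -0.77. Btg1, an antiproliferative gene, stood at 322, 321, 383 and 325 CPM in the 4 litters against 670, 604, 680 and 603 in comparison cells (-0.90 ± 0.07, adjusted p = 3.37e-05). Ypel3 stood at 167, 107, 173 and 162 CPM against 346, 291, 318 and 300 (-1.02 ± 0.11, adjusted p = 0.000198). The groups did not overlap for either gene. Of 17 genes of IL-2 and STAT5 signalling 4 were lower and 0 higher, with a median of -0.34: Socs2 (-0.94), Il7r (-0.68), Cish (-0.40) and Pim1 (-0.34). Il7r, the receptor chain for IL-7 and TSLP, stood at 480, 612, 383 and 580 CPM against 898, 902, 772 and 785. Of 20 ILC2 identity genes Ikzf3, Ptpn13 and Rora were lower and Thy1 was higher, with a median of -0.22, and of 6 alarmin receptor genes 0 were called (median -0.41). Rora missed the threshold without DEX-2 (-0.60, adjusted p = 0.0527), and Thy1 missed it by DESeq2 (adjusted p = 0.121) and without DEX-1, DEX-2 or PBS-2.

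Type 2 effector genes moved little as a list. Of 13 tested, Calca and Ccl5 were lower and 0 were higher, with a median of -0.04. Calca, which encodes the peptide CGRP, stood at 2615, 2138, 1831 and 1285 CPM against 7831, 4578, 7956 and 2762 in comparison cells (-1.45 ± 0.14, adjusted p = 9.28e-05). Each litter's value fell, although the highest entry litter and the lowest comparison litter nearly met. Areg differed by 0.14 ± 0.13, Il13 by -0.04 ± 0.18, Csf2 by 0.12 ± 0.14 and Il5 by 0.32 ± 0.48, none called. Of 15 glucocorticoid response genes the chaperones Hsp90aa1 (0.78), Hsp90ab1 and Fkbp4 (0.68) were higher, and 6 were lower, among them Mt1 (-1.74), Klf9, Per1 and Nr3c1, the glucocorticoid receptor (-0.37 ± 0.10, adjusted p = 0.0314).

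Among cells of like depth no quiescence gene was called lower. Btg1, Ypel3, Il7r and Socs2 fell by less, Mcm3 and Mcm6 also rose by less, and many rises were still called. When only cells with 9023 to 12423.5 UMIs were kept, the span between the 25th and 75th percentiles of the members, 164 of 4337 genes were called. Of the lists above, 6 of 9 licensing, 9 of 24 fork, 5 of 15 nucleotide and 4 of 19 growth genes were still higher, and Mcm3 and Mcm6 rose by 1.74 and 1.75. Of 10 quiescence genes tested 0 were lower (list median -0.38), with Btg1 at -0.27 (adjusted p = 0.397) and Ypel3 at -0.53 (adjusted p = 0.145). Il7r was at -0.33 (adjusted p = 0.178), Socs2 at -0.17 and Calca at -0.49 (adjusted p = 0.00161, called). Ikzf3 (0.0931), Thy1 (-0.0274), Cish (0.0481) and Ccl5 (0.29) were not called there and turned sign. When instead all cells were thinned to 5000 UMIs before the rule was applied, 5 of 16 quiescence genes and 5 of 17 IL-2 and STAT5 genes were lower. The matched span held 79 members and 93 comparison cells, so fewer genes could be called there.

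Among genes called, lower in all 4 litters, at 20 CPM or more in comparison cells and without close copies, the 12 largest falls included genes known from other lung cells. Acta2 of smooth muscle had 2 UMIs over all members and 549 over all comparison cells, and Cbr2, Retnla, Dram1, Myl9, Pla2g7, the surfactant genes Sftpc (-3.48) and Sftpa1 (-2.84), Chil1, Slc38a5, Tmem37 and Nnat made up the rest. Without cells that carried other cells' markers, Sftpc was at -0.76 and Sftpa1 at -1.22, and Acta2, Cbr2, Retnla, Dram1, Myl9, Chil1 and Nnat no longer had enough UMIs to test. Pla2g7 (-4.01), Slc38a5 (-4.71) and Tmem37 (-2.54) were still called. Slc38a5 was at 0.17 (adjusted p = 0.925) after thinning to 5000 UMIs. The stroma list, called lower for Sftpb, Sftpc and Epcam, went from -2.65 to -0.20 for Sftpb and from -0.96 to -0.44 for Epcam. The haemoglobin genes, which have close copies, were also called lower. Hba-a1 stood, in TMM-scaled CPM, at 0 in members of 3 litters and under the level of 3 UMIs in those of PBS-2, and at 133, 4.19, 9.87 and 6.68 in comparison cells (adjusted p = 0.00242). Hbb-bs (-3.60 ± 0.89, adjusted p = 0.022) was at 338 in comparison cells of DEX-1 and at 3.49 to 6.03 in those of the other litters, and was lower in 2 of 4 litters.

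The rise of the replication lists did not begin at the threshold. Over ILC2s with a low M sum, licensing UMIs per 10000 were 3.29 ± 0.144 (SD over litters) at an S sum of 0, 4.73 at 1, 6.53 at 2, 10.51 at 3, 10.54 at 4 and 14.1 ± 0.93 at 5 or more. Fork UMIs went from 8.60 through 10.9, 14.4, 17.5 and 20.0 to 25.8, and nucleotide UMIs from 9.95 to 27.0. Every step was upward or level in these 3 lists. Quiescence UMIs went from 33.4 at a sum of 0 through 29.5, 25.9, 22.1 and 16.3 to 19.5, and type 2 effector UMIs from 79.1 to 30.9, with 62.5 and 65.4 at sums of 3 and 4. Calca alone made up most of the effector UMIs in the comparison cells of each litter, so their sum does not measure the list as a whole. Mitosis UMIs stayed between 1.90 and 3.74. Median depth rose along the same steps, from 5836 to 10856.5 UMIs per cell, and its part in these values was not tested. On the other side of the rule, mitosis UMIs were 3.16 in members with an M sum of 0, 3.64 with 1, 4.04 in cells with 2 and 34.1 in cells with 3 or more.

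**Figure D4:**
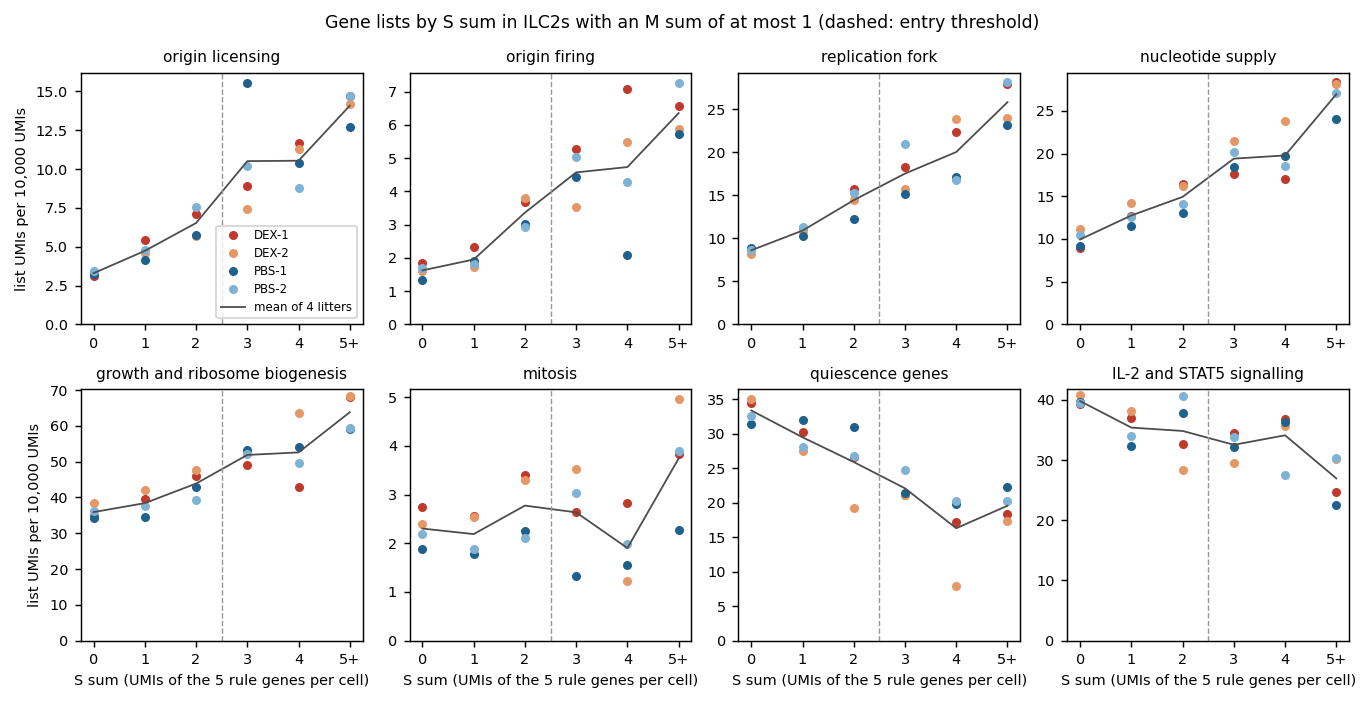
UMIs of each list per 10000 UMIs by S sum in ILC2s with an M sum of at most 1, with points for litters and lines for their mean. Licensing, fork and nucleotide lists climb from an S sum of 0 through the threshold at 3, while the mitosis list stays low and the quiescence list declines.

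Cell by cell, after thinning to 5000 UMIs, licensing UMIs had a median of 6 in members, 1 in comparison cells and 5 in dividing cells, and 2 of 159 members had none. Mcm6 was found in 76.7% of members, 20.2% of comparison, 55.4% of dividing cells and 24.6% of cells outside the gate (92.5%, 28.6%, 78.0% and 39.2% before thinning). Tyms was found in 18.2% of members and 4.39% of comparison cells, and Rrm2 in 3.77%, 2.40% and 49.2% of members, comparison and dividing cells. Members thus held Mcm6 more often than dividing cells did, and Rrm2 far less often. Thinning left out 255 comparison cells and no member.

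The second comparison set entry cells against dividing ILC2s, to show where the 2 classes differ. The S sum was not limited in dividing cells, and its median there was 3 in every litter, the threshold for entry. Of 8730 genes tested 488 were called (5.59%), 113 higher in entry cells (1.29%) and 375 lower (4.3%), by the same edgeR test. All 40 mitosis genes were lower, which is close to what the low M sum fixes and is not read further. Of these, 5 had 0 UMIs in members and 12 had 1 to 3, and the list median of -4.59 becomes -4.23 when the 5 are set at the level that 3 UMIs over the class would give. Outside the list, Mxd3, which represses Myc targets, had 0 UMIs in members and 292 in dividing cells, so it was at least 22.7-fold lower at that floor. The number called was 303 without DEX-1, 326 without DEX-2 and 322 without PBS-2.

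Of 13 licensing genes 3 were higher in entry than in dividing cells and Gmnn was lower. Mcm6 stood at 201, 178, 209 and 207 CPM in dividing cells, under the 268 to 389 of entry cells (0.70 ± 0.09, adjusted p = 0.000462). Mcm3 stood at 158, 158, 173 and 162 CPM (0.44 ± 0.09, adjusted p = 0.0146) and Mcm4 at 127, 109, 139 and 130 against 170 to 198 (0.53 ± 0.11, adjusted p = 0.0123). In these 3 genes no litter's values overlapped between classes. Mcm7 (0.14), Cdt1 (0.19), Gins2 (0.19), Hells (0.29), Pcna (-0.08) and Dut (-0.11) were not called. In depth-matched cells 0 of 9 licensing genes were higher, with Mcm6 at 0.41 (adjusted p = 0.134), and after thinning 2 were, Mcm6 at 0.86 and Mcm3 at 0.77. Mcm3 and Mcm4 also missed the threshold by DESeq2 (adjusted p = 0.0901 and 0.0522) and without DEX-1 or DEX-2, and Mcm3 without PBS-2.

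Thymidylate and deoxyribonucleotide genes were far from their dividing level. Rrm2 stood at 14.3, 25.5, 13.8 and 19.1 CPM in members and 217, 192, 224 and 219 in dividing cells (-3.51 ± 0.18, adjusted p = 1.14e-07). Tk1 stood at 21.5, 25.5, 20.7 and 27.9 CPM against 129, 97.5, 123 and 130 (-2.29 ± 0.18), and Tyms at 62.0, 71.4, 44.9 and 63.2 against 194, 196, 207 and 199 (-1.69 ± 0.14). No litter overlapped in any of the 3. Rrm1 (-1.23) was lower too, while Nme1 was the 1 nucleotide gene of 22 called higher. After thinning, Rrm2 was at -1.72 and Tk1 at -1.58, both called, and Tyms at -0.48 (adjusted p = 0.337). Clspn (-1.92), Asf1b (-1.92), Gmnn (-0.97), Fen1 and Rfc4 were also lower, as were the repressors E2f7 (-2.23) and E2f8 (1 UMI over all members, 150 over dividing cells) and the inhibitors Cdkn2d (-1.05) and Cdkn2c (3 UMIs against 207). Of 30 replication-dependent histone genes 23 were lower and 0 higher.

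Other genes were higher in entry than in dividing cells. Ccnd2, the cyclin that partners Cdk4 early, stood at 162, 107, 117 and 135 CPM against 87.7, 74.5, 74.3 and 77.5 (0.74 ± 0.13, adjusted p = 0.00303), with no overlap. Growth genes Srm (0.87), Dkc1 (0.66), Fbl (0.52) and Npm1 (0.27) were higher, 4 of 23, with a list median of 0.30. Bcl2, which protects from apoptosis, stood at 131, 117, 162 and 170 CPM against 69.1, 57.1, 95.6 and 121 (0.77 ± 0.13, adjusted p = 0.00282). Its ranges overlapped across litters, but it was higher within each. Lgals3 (1.66) rose too, and Cdca7 (0.97) and Ikzf3 (0.36) were higher as well. Not all called genes of these kinds were higher. Arg1 of the ILC2 identity list (-0.56) and the quiescence genes Klf2 (-1.06) and Ccng2 (-1.81) were lower in entry cells, while the quiescence gene Btg1 (0.32) was higher. Arg1 turned sign after thinning and Btg1 in depth-matched cells. Of the alarmin receptor and type 2 effector lists 0 genes were called by this edgeR test. Lgals3 missed the threshold by DESeq2 (adjusted p = 0.0743), and Bcl2, Ikzf3 and Lgals3 missed it after thinning.

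The study's own question, whether maternal DEX changes fetal ILC2s, was put to the members alone. Of 5269 genes tested in 2 DEX and 2 PBS litters, edgeR called 0 (0%), with 321 at an unadjusted p under 0.05 and a smallest adjusted p of 0.201, and DESeq2 called 8. In 1875 genes (35.6%) the DEX and PBS litters did not overlap. With 2 litters a group, such a separation has an exact permutation p of 0.333 for any gene. Neither this share nor a single gene's separation is read further. Nr3c1 stood at 274 and 286 CPM in the DEX litters and at 238 and 275 in the PBS litters (0.12 ± 0.16 on the log2 scale). Its known targets Fkbp5, at 47.7, 45.9, 62.2 and 72.0 CPM (-0.53 ± 0.28), and Tsc22d3, at 66.8, 58.7, 76.0 and 103 (-0.54 ± 0.28), were lower in both DEX litters than in both PBS litters without passing the test. Zbtb16, fixed for this comparison as well, went the other way and was higher in both DEX litters than in both PBS litters (0.24 ± 0.29). Neither it nor Il1rl1 (0.07 ± 0.33) was called. For the replication genes the differences were small beside their errors, with Mcm3 at -0.12 ± 0.17, Mcm6 at 0.05 ± 0.20 and Pcna at 0.30 ± 0.20, and their litter ranges overlapped for Mcm3 and Mcm6. Ccnd2 (0.09), Myc (0.45) and Cdkn1b (-0.15) were not called either.

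**Figure D5:**
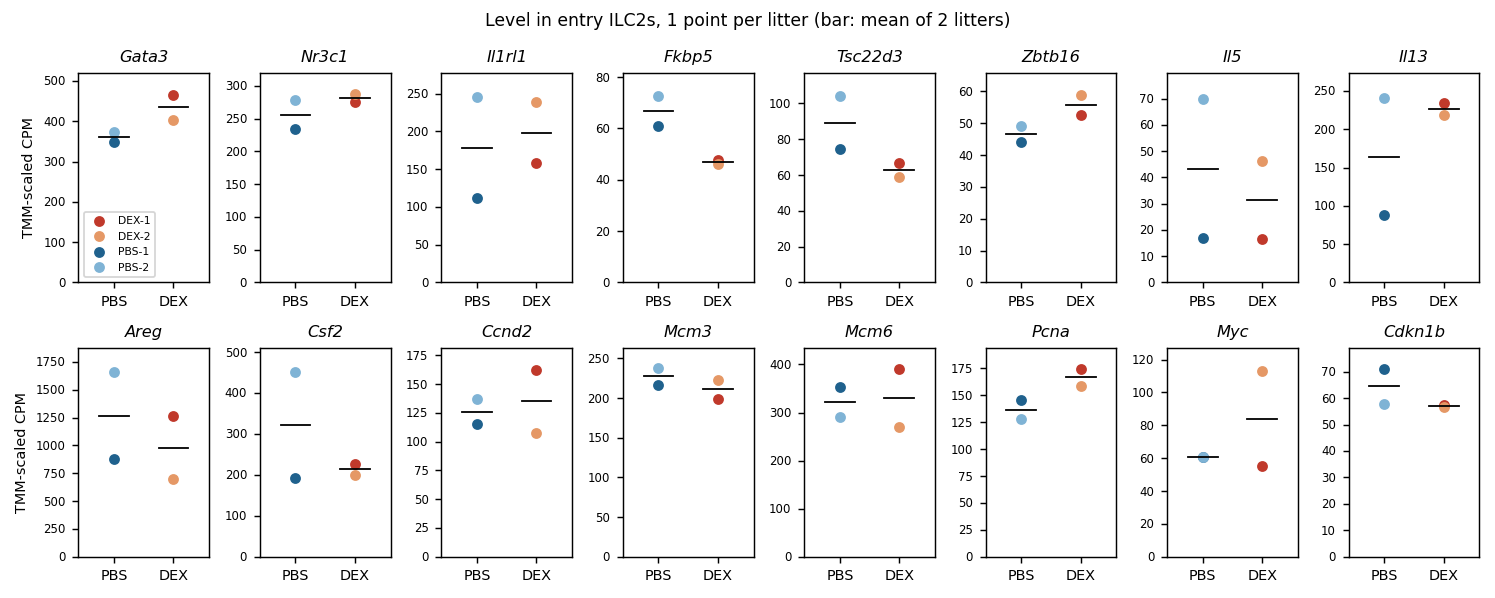
Level in TMM-scaled CPM of the genes fixed for the treatment comparison in entry ILC2s, each point a litter and each bar the mean of 2, DEX beside PBS. Fkbp5 and Tsc22d3 are lower in both DEX litters, Zbtb16 is higher in both, and Mcm3 and Mcm6 overlap. Gata3 is a gene of the rule and is shown as a description.

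Type 2 effector genes varied between litters of 1 group. Il5 stood at 16.7, 45.9, 17.3 and 69.0 CPM (-0.67 ± 0.61), Csf2 at 227, 199, 197 and 447 (-0.66 ± 0.32), Il13 at 234, 217, 89.8 and 238 (0.36 ± 0.34) and Areg at 1257, 691, 891 and 1641 (-0.39 ± 0.31). PBS-2 was the highest litter in all 4 genes, and PBS-1 the lowest for Il13 and Csf2. No list had a called gene. The number called was 97 without PBS-1, 303 without PBS-2, 3 without DEX-1 and 0 without DEX-2, where 1 group rests on a lone litter that is assumed to vary like the rest.

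Whether the DEX difference was another one in entry than in comparison cells was tested as an interaction. Of 8977 genes 2 were called (0.0223%), Ramp2 (-3.93 ± 0.43, adjusted p = 0.0316) and Mest (-3.91 ± 0.48, adjusted p = 0.0476), both by edgeR. Ramp2, a receptor partner known from endothelium, stood at 11.9, 17.9, 373 and 119 CPM in entry cells and 111, 77.4, 117 and 64.9 in comparison cells. The PBS-1 and PBS-2 members described above carried 127 and 39 endothelial UMIs. Without all cells carrying other cells' markers the interaction was 0.74 for Ramp2 and -0.00486 for Mest, neither called. Nr3c1, Mcm3, Mcm6 and the other fixed genes tested were not called, and no licensing, fork or nucleotide gene was. Gata3 is a gene of the rule and was left out. Il5, the eosinophil cytokine, stood at 16.7, 45.9, 17.3 and 69.0 CPM in entry cells and at 8.67, 129, 7.97 and 22.4 in comparison cells, an interaction of -2.43 ± 0.63 (adjusted p = 0.66). It was highest in the comparison cells of DEX-2. Without cells carrying other cells' markers 5 genes were called by edgeR, and Il5 was one of them (-2.45, adjusted p = 0.0091), with Klf6 (-1.24) also negative and Il17a, Cxcl3 and Scgb1a1 positive. Il5 also passed without PBS-1 (-2.66, adjusted p = 0.00539) and with no filter on low counts (-2.40), and stood at -0.49 (adjusted p = 1) without DEX-2 and at 0.0766 (adjusted p = 1) in depth-matched cells.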

How the data were processed

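Single-cell RNA sequencing (10x Genomics, 5′) of ST2+ cells sorted from fetal lungs gave a gene library and a hashtag library, deposited as 1 matrix. The authors counted UMIs with Cell Ranger (version 7 per the labels, 7.0.0 per the file header) on mm10, and the deposited values are raw counts per gene or hashtag and barcode. Of 10648 barcodes, 13 held under 200 genes, 231 exceeded 5% mitochondrial UMIs and 10409 passed. A singlet had at least 10 UMIs of its top hashtag and 3 times the next, and 8598 remained. No doublet caller was run, and doublets within a litter share a hashtag and were not removed. Hashtag rows were tied to litters through the antibody number. Litters held 18345084 to 34015962 gene UMIs over singlets and 289485 to 680834 over entry cells, so 3 UMIs correspond to 4.41 to 10.4 CPM per litter.

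The members, lists, tests and alternatives were chosen with earlier results of these data known. UMIs were summed per litter and class and tested with edgeR 4.0.16 (glmQLFTest, TMM, filterByExpr, two-sided) in R 4.3.3, with litter as a block between classes of the same litters. SE was taken as |log2 fold change| over the root of the F statistic. Litter values in the text are CPM of the unscaled class total. DESeq2 1.42.0 was an alternative. Shares and medians were compared by exact permutation over litters. Per the labels and the methods each group had 2 mothers, while a figure legend gives 1, in which case the pools of a group would not be independent litters. Litters are the replicates, and nothing says that pools of a litter were handled apart, so p-values measure the spread between these 4 pools. Scripts were tested on simulated data.

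Genes were named by rule. In each class comparison these were called genes changed alike in all 4 litters, the 12 with the largest log2 fold change in each direction at 20 CPM or more in the higher class, and up to 4 called genes per list by size. For the treatment they were up to 10 called genes a direction and 18 fixed genes. Genes with close copies or without a name were skipped. Other genes in the text are members of the fixed lists, and Mxd3 stands for 10 named genes at 0 UMIs. Gene lists cover replication, growth, cytokine, identity, quiescence and other cell types. Promoters come from RefSeq (GRCm38.p6). The mitochondrial limit was 10%, the hashtag ratio 5 and the S sum at least 4 in other alternatives. Cells with over 0.5% of UMIs from another cell type's list, or 5 or more UMIs of 9 stroma genes, were left out in an alternative chosen after seeing the data.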

Additional observations from a re-analysis of the deposited data

Results flagged for a closer look

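The DEX difference differed between entry and comparison ILC2s for 2 genes, by the interaction term of edgeR's quasi-likelihood test. Ramp2 had an interaction of -3.9349 on the log2 scale (adjusted p = 0.0316) and Mest one of -3.91 (adjusted p = 0.0476). In entry cells Mest stood at 14.3 and 30.6 CPM in the DEX litters and at 446 and 118 CPM in the PBS litters, against 128, 104, 106 and 61.6 CPM in comparison cells. A member in PBS-1 held 127 endothelial UMIs and a member in PBS-2 held 39. Without the cells that carried other cells' markers the interaction was 0.74 for Ramp2 and -0.00486 for Mest, and neither was called, while Il5 (-2.45, adjusted p = 0.0091) was 1 of 5 genes that were.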

How the results depend on the processing

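Alternatives changed one choice at a time. In the class comparisons 1022 of 1125 values of named genes in the first and 760 of 913 in the second kept direction and side of the threshold, 97 and 147 kept the direction but missed the threshold, and 6 in each turned. For the treatment in entry cells 235 of 262 values and for the interaction 208 of 271 kept both, and 24 and 44 turned. The treatment comparisons rest on 2 litters a group and 159 cells, and a gene that was not called is not shown to be alike. The causes of the changes below were not tested unless cells or litters were left out.

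For entry against comparison ILC2s the number called was 1215, 658 by DESeq2, 1825 at a hashtag ratio of 5, 164 in depth-matched cells, 546 after thinning to 5000 UMIs and 1862 without cells carrying other cells' markers, and 619 to 1336 when a litter was left out. For entry against dividing ILC2s the number called was 488, 755 at a hashtag ratio of 5, 246 in depth-matched cells and 171 after thinning to 5000 UMIs, and 303 to 641 when a litter was left out. For DEX against PBS in entry ILC2s the number called was 0, 8 by DESeq2, 225 with no low count filter, 1 at a hashtag ratio of 5, 1 at an S sum of at least 4, 7 without cells above the 95th percentile of UMIs, 2 after thinning to 5000 UMIs and 1 without cells carrying other cells' markers, and 0 to 303 when a litter was left out. For the interaction the number called was 2, 1 with DESeq2 size factors, 105 with no low count filter, 0 with the stricter filter of 20 UMIs, 4 at a hashtag ratio of 5, 10 at an S sum of at least 4, 0 in depth-matched cells, 4 after thinning to 5000 UMIs, 10 with both sums 0 in comparison cells and 5 without cells carrying other cells' markers, and 0 to 145 when a litter was left out. 

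With no replicate block of litters, 1235 and 412 genes were called in the class comparisons. With the replicate block of the litter number, 7 genes were called between treatments. The numbers were not taken to pair the litters, since deviations of DEX-1 from DEX-2 correlated with those of PBS-1 from PBS-2 at r = -0.183 over 3005 genes. With the crossed pairing, chosen after seeing the data, 64 were called.

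For entry against comparison ILC2s the log2 fold change turned sign for Slc38a5 (0.17) after thinning to 5000 UMIs, for Cish (0.0481), Thy1 (-0.0274), Ikzf3 (0.0931), Ccl5 (0.29) and Errfi1 (0.13) in depth-matched cells. For entry against dividing ILC2s the log2 fold change turned sign for Uhrf1 (0.0923), Arg1 (0.11) and Hsp90aa1 (0.0726) after thinning to 5000 UMIs, for Mt1 (0.0202) and Hsp90aa1 (0.0476) without cells above the 95th percentile of UMIs, for Btg1 (-0.19) in depth-matched cells. For DEX against PBS in entry ILC2s the log2 fold change turned sign for Il5 (0.27) at an S sum of at least 4, for Areg (0.0827), Mcm6 (-0.14), Pcna (-0.0344) and Myc (-0.14) in depth-matched cells, for Areg (0.48) and Mcm3 (0.24) after thinning to 5000 UMIs, for Mcm6 (-0.0219) and Cdkn1b (0.18) at a hashtag ratio of 5, for Mcm6 (-0.0922) and Cdkn1b (0.23) without cells above the 95th percentile of UMIs, for Mcm6 (-0.0517) and Cdkn1b (0.15) without cells carrying other cells' markers. With litters left out in turn, Il1rl1 ranged from -0.31 to 0.82, Il5 ranged from -1.48 to 0.86, Il13 ranged from -0.0876 to 1.36, Areg ranged from -0.87 to 0.17, Csf2 ranged from -1.08 to 0.15, Ccnd2 ranged from -0.22 to 0.37, Mcm6 ranged from -0.23 to 0.30 and Myc ranged from -0.13 to 0.90. For the interaction the log2 fold change turned sign for Ramp2 (1.15), Mest (0.81), Fkbp5 (-0.0434), Areg (-0.18), Mcm6 (-0.0705), Pcna (-0.0153) and Cdkn1b (0.20) without cells above the 95th percentile of UMIs, for Ramp2 (0.74), Fkbp5 (-0.0426), Zbtb16 (0.00882), Areg (-0.18), Mcm6 (-0.00336) and Cdkn1b (0.13) without cells carrying other cells' markers, for Fkbp5 (-0.21), Il5 (0.0766), Mcm6 (-0.24), Pcna (-0.14), Myc (-0.15) and Cdkn1b (0.58) in depth-matched cells, for Tsc22d3 (0.41), Mcm3 (0.27), Mcm6 (-0.0638), Pcna (-0.53) and Cdkn1b (0.53) after thinning to 5000 UMIs, for Areg (-0.0899), Mcm6 (-0.00249) and Cdkn1b (0.19) at a hashtag ratio of 5, for Mcm3 (0.00505) by DESeq2, for Mcm3 (0.021) with DESeq2 size factors, for Mcm3 (0.0307) with no low count filter, for Mcm3 (0.00841) with the stricter filter of 20 UMIs, for Mcm3 (0.11) at an S sum of at least 4. With litters left out in turn, Fkbp5 ranged from -0.0816 to 0.53, Zbtb16 ranged from -0.39 to 0.0632, Areg ranged from -0.38 to 0.50, Csf2 ranged from -0.72 to 0.0545, Ccnd2 ranged from -0.0129 to 0.64, Mcm3 ranged from -0.18 to 0.22, Mcm6 ranged from -0.28 to 0.46 and Pcna ranged from -0.12 to 0.44. 

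The difference in the share of entry cells (DEX minus PBS, in percentage points) was -3.02 after thinning to 5000 UMIs, -0.22 at an S sum of at least 4, -0.0632 at a hashtag ratio of 5, -0.0174 without cells above the 95th percentile of UMIs, -0.23 without cells carrying other cells' markers and -1.05 with only ILC2s of a low M sum as denominator, and -3.16 to 3.23 with a litter left out. The log2 ratio of hashtag UMIs, entry against comparison cells, was -0.13 in depth-matched cells, and -0.00108 to 0.14 with a litter left out. That of genes per cell after thinning was -0.00281 in depth-matched cells.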
